A study of Homo sapiens with 6 samples.

Results

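The cornified envelope genes described here are IVL, SPRR1A, SPRR1B, SPRR2A, SPRR2D, SPRR3, TGM1, CNFN, SBSN and CSTA. They were chosen by name, and each was located by the Ensembl gene ID that carries its symbol. All 10 had a row in the deposited expression table, which lists 30178 human genes. RNA sequencing had been carried out on CAL27, an established human cell line from an oral carcinoma that the labels call adenosquamous. The groups were a line carrying MB21D2 with the Q311E substitution, a line carrying wild-type MB21D2 and a line carrying an empty vector, with 2 libraries, A and B, in each group. All 3 lines were labelled as stable lines of GFP-fused proteins and were kept in DMEM with serum and the drug G418, so selection was common to the groups. The series design asks how the Q311E and wild-type forms of MB21D2, a gene of the Mab-21 family, differ in their effect on the transcriptome. The sources used here do not give the promoter of the constructs or the number of clones behind each line. The labels do not say that A and B were separate cultures, so the p-values below reflect how far libraries of 1 line differ from each other, which may be technical spread alone.

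The cornified envelope is the layer of crosslinked protein, with lipid bound to its outer face, that replaces the plasma membrane of keratinocytes at the end of their differentiation. Transglutaminases build it by joining glutamine and lysine side chains of substrate proteins. In stratified squamous epithelia, the mouth included, these genes are switched on in the layers above the basal layer, and squamous carcinomas keep them to very different degrees. Involucrin (IVL) is the early scaffold, the small proline-rich proteins (SPRR) are short cross-bridging substrates, and TGM1 is the membrane-anchored transglutaminase of keratinocytes. Cornifelin (CNFN) and suprabasin (SBSN) are further envelope proteins, and cystatin A (CSTA) is an inhibitor of cysteine proteases that is itself built into the envelope.

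The first 6 of these genes lie together in the epidermal differentiation complex on chromosome 1 (GRCh38, GENCODE 29), from IVL at chr1:152908545-152911886 to SPRR2A at chr1:153056113-153057537. TGM1 lies at chr14:24249114-24264432, SBSN at chr19:35523367-35528351, CNFN at chr19:42387019-42390287 and CSTA at chr3:122325244-122341972. No exon of the 10 genes overlapped an exon of another annotated gene on either strand. The SPRR genes resemble each other. Of the 50-base windows of their annotated transcripts, 32.7% in SPRR2A and 19.3% in SPRR2D also occurred in other SPRR2 genes, and 11.3% in SPRR1A and 4.38% in SPRR1B occurred in the other SPRR1 gene. Reads could therefore have been divided among these copies, and the values of these 4 genes are uncertain to that extent. The other 6 genes shared no such window.

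Promoter sequence was on hand from RefSeq (GRCh38.p14) for 7 of the 10 genes: IVL, SPRR1A, SPRR1B, SPRR2A, SPRR3, CNFN and SBSN. The 250 bases before the start site are shown for SPRR1A, SPRR1B and SBSN, whose reads were most numerous in the vector line, and for SPRR2A and CNFN, whose reads were most numerous in the Q311E line. Each reads 5′ to 3′ on the gene's own strand. Capitals mark matches to TGANTCA, the letters bound by AP-1 (dimers of JUN and FOS proteins), and in CNFN, which had no such match, they mark GGGCGG on either strand, the GC box bound by SP1.
SPRR1A, chr1:152983831-152984080, plus strand: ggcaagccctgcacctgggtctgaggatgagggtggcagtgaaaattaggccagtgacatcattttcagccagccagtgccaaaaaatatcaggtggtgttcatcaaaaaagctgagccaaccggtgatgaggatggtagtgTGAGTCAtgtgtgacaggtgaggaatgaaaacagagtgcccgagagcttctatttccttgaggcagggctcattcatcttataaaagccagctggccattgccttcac
SPRR1B, chr1:153030953-153031202, plus strand: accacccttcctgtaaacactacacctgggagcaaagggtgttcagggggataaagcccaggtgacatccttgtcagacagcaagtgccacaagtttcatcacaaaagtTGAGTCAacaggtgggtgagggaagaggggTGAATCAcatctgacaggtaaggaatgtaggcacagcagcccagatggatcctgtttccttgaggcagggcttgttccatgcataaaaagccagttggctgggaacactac
SBSN, chr19:35528312-35528561, minus strand: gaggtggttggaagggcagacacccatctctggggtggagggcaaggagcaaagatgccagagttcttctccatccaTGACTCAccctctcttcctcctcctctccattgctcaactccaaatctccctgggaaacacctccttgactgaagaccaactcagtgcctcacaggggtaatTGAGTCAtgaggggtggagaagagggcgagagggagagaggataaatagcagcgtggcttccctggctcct
SPRR2A, chr1:153057513-153057762, minus strand: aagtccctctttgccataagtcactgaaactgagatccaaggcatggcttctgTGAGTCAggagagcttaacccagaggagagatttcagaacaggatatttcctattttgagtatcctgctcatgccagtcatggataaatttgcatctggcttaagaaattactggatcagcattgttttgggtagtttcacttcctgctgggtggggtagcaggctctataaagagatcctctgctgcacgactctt
CNFN, chr19:42390298-42390547, minus strand: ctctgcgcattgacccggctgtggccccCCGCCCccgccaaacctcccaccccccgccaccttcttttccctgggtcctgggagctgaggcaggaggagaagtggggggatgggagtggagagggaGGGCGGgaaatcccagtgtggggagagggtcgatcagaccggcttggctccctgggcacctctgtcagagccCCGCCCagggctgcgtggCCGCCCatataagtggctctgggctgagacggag

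TGANTCA, which reads the same on both strands, was found in 6 of the 7 promoter windows and in 6.57% of 35116 RefSeq windows of the same length. SPRR1B and SBSN held it at 2 places each. It began 108 bases before the start site in SPRR1A, 141 and 111 bases before it in SPRR1B, 173 and 71 bases before it in SBSN, and 197 bases before it in SPRR2A. TATAAA, sought on both strands, was found in 4 of the 7 windows, IVL, SPRR1A, SPRR2A and SPRR3, at 29 or 30 bases before the start site, and in 10.7% of all windows. The octamer ATGCAAAT was found on either strand in SPRR2A alone, 110 bases before the start, and in 1.63% of all windows. CNFN was the 1 window of the 7 with GGGCGG, at 4 places, against 42.6% of all windows. None of these matches overlapped a match to another motif. A match describes the letters in a window and is not a measured binding site.

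The libraries held from 20645408 to 24147308 reads. Expression was given as FPKM, reads scaled by the length of the gene and by the total of the library. The reads behind each value could be recovered, because a low value was a whole number of times what 1 read is worth. MB21D2 itself stood at 32.8 and 21.2 FPKM in the Q311E line, 104 and 106 FPKM in the wild-type line and 8.31 and 7.15 FPKM in the vector line, so the transcript was above the vector level in both lines and higher in the wild-type line than in the Q311E line. All 9 listed markers of squamous epithelium were detected at a mean of 1 FPKM or more, and their summed level was 1241 to 1313 FPKM in the Q311E line, 1049 to 1059 FPKM in the wild-type line and 1376 to 1395 FPKM in the vector line. Of markers of other cell types, CDH5 of endothelium stood at 15.4 to 35.2 FPKM while PECAM1 and VWF were under 0.32 FPKM in each library, and CD14 of monocytes stood at 4.93 and 18.8 FPKM in the Q311E libraries while PTPRC was at 0 in 5 of 6 libraries. Libraries A and B differed most in the Q311E line. The SD of their log2 difference across the 11481 genes tested was 0.44 for Q311E, 0.15 for wild type and 0.19 for vector.

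Most of the envelope genes were barely transcribed in CAL27. CSTA averaged 22.7 FPKM over the 6 libraries, above 92.8% of the genes in the table. CNFN averaged 1.58 FPKM, above 65.7%, and the other 8 genes averaged from 0.00479 FPKM for SPRR3 to 0.578 FPKM for SPRR1B, so that the highest of them stood above 57.0% of the genes. Apart from CSTA, the remaining 9 genes together drew 99 and 94 reads in the Q311E libraries, 67 and 54 reads in the wild-type libraries and 108 and 74 reads in the vector libraries. The 5 SPRR genes together drew 26 and 32 reads in the Q311E libraries, 6 and 4 reads in the wild-type libraries and 46 and 17 reads in the vector libraries, so the wild-type line was the lowest of the 3 lines on this sum. In bulk RNA, fewer cells making a transcript and less transcript per cell cannot be told apart.

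**Figure D1:**
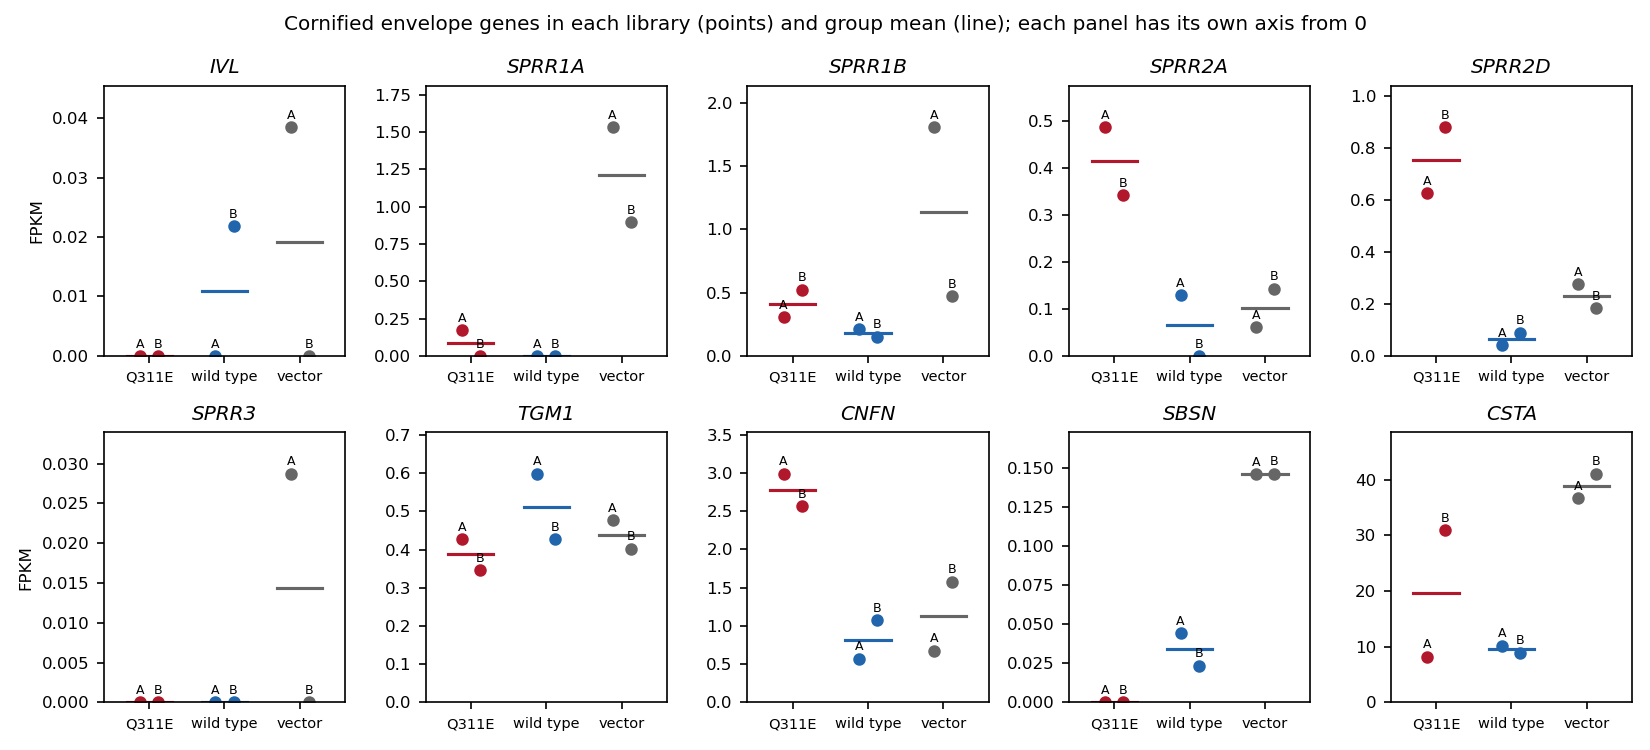
FPKM of the 10 cornified envelope genes in each library (points, labelled A and B) with the group mean (line), in the Q311E, wild-type and vector lines from left to right. Each panel has its own axis from 0. CSTA reaches 41.1 FPKM while IVL and SPRR3 stay under 0.04 FPKM, SPRR2A, SPRR2D and CNFN are highest in the Q311E line, and SPRR1A, SBSN and CSTA are highest in the vector line.

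The comparison across all genes used limma on log2(FPKM + 1) for the 11481 genes that averaged 1 FPKM or more, and a gene was called at a Benjamini-Hochberg adjusted p under 0.05. Of the 10 envelope genes, CNFN and CSTA passed this filter, and the other 8 did not. A second fit, chosen after these values were seen, applied limma-voom to the recovered reads of the 19919 genes with at least 10 reads in all libraries together. It took in 8 of the 10 genes and left out IVL and SPRR3. SPRR1A and SBSN reached 10 reads only through the vector line, and SPRR2A only through the Q311E line. Its fold changes are per read and not on the log2(FPKM + 1) scale, which understates the changes of low genes.

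Involucrin, the scaffold on which the envelope is begun, was close to absent. It drew no read in either Q311E library, 0 and 1 read in the wild-type libraries, and 2 and 0 reads in the vector libraries, the highest value being 0.0385 FPKM. All of these lie under the level of 3 reads that a count of 0 allows, which is at most 0.0675 FPKM in these libraries, so no difference was detectable at this depth. SPRR3, a substrate abundant in the lining of the mouth and oesophagus, drew 1 read in all, in vector library A. Limits of this kind cover counting error only.

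The SPRR1 genes were highest in the vector line. SPRR1A stood at 0.174 and 0 FPKM in the Q311E line, at 0 in both wild-type libraries, and at 1.53 and 0.897 FPKM in the vector line. These values rest on 1 and 0 reads in the Q311E line, no reads in the wild-type line, and 10 and 5 reads in the vector line. The annotated gene model behind them is a single stretch of 270 bases. It begins at chr1:152985231, downstream of the RefSeq start site, where the promoter window ends at chr1:152984080. Transcribed sequence outside the model would not have been counted, so the reads may understate SPRR1A. The vector libraries lay above all 4 others. Read for read, SPRR1A in the Q311E line was 0.0696 times its vector level, with an exact 95% counting interval of 0.00165 to 0.452, and in the wild-type line it was at least 4.93-fold lower than in the vector line, taking 3 reads over both wild-type libraries as the floor. The fit on reads gave a log2 fold change of −3.17 ± 0.91 for Q311E against vector (SE, adjusted p = 0.0666). For wild type against vector adjusted p was 0.0562, and neither passed the threshold. The fitted fold change of a gene at 0 in a whole group depends on the prior count and is not given here or below. Without either Q311E library, wild type against vector passed the threshold, with adjusted p = 0.0167 without library A and 0.0158 without library B.

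SPRR1B followed the same order with more reads. It stood at 0.304 and 0.523 FPKM in the Q311E line (4 and 7 reads), 0.213 and 0.152 FPKM in the wild-type line (3 and 2 reads), and 1.81 and 0.470 FPKM in the vector line (27 and 6 reads). The vector libraries differed by 3.85-fold between themselves, and vector library B lay between the values of the Q311E libraries. The fit on reads gave 0.84 ± 1.02 for Q311E against wild type (adjusted p = 0.584), −1.27 ± 0.78 for Q311E against vector (adjusted p = 0.324) and −2.11 ± 0.92 for wild type against vector (adjusted p = 0.211). None of these passed the threshold.

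The SPRR2 genes were highest in the Q311E line. SPRR2A stood at 0.486 and 0.342 FPKM in the Q311E line (7 and 5 reads), 0.130 and 0 FPKM in the wild-type line (2 and 0 reads), and 0.0612 and 0.143 FPKM in the vector line (1 and 2 reads). Both Q311E libraries lay above the 4 others, which overlapped. The fit on reads gave 2.37 ± 0.94 for Q311E against wild type (adjusted p = 0.117), 1.74 ± 0.83 for Q311E against vector (adjusted p = 0.213) and −0.63 ± 1.07 for wild type against vector (adjusted p = 0.757), with no call.

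SPRR2D showed the same high side with a call. It stood at 0.625 and 0.879 FPKM in the Q311E line (14 and 20 reads), 0.0417 and 0.0892 FPKM in the wild-type line (1 and 2 reads), and 0.276 and 0.184 FPKM in the vector line (7 and 4 reads). No 2 of the 3 groups overlapped, and the wild-type line was the lowest. Against wild type, SPRR2D rose in the Q311E line by 3.04 ± 0.69 on the log2 scale in the fit on reads (adjusted p = 0.0256), and the summed reads gave a ratio of 11.7, with a counting interval of 3.67 to 59.3. Without any 1 of the wild-type or vector libraries this call was lost, with adjusted p from 0.0625 to 0.199, while the fold change stayed between 2.59 and 3.45. Against vector the value was 1.54 ± 0.52 (adjusted p = 0.0997), and it passed without Q311E library A (1.78, adjusted p = 0.0325). For wild type against vector it was −1.495 ± 0.76 (adjusted p = 0.269).

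Suprabasin, a secreted protein of the suprabasal layers, drew no read in either Q311E library, 2 and 1 reads in the wild-type libraries, and 7 and 6 reads in the vector libraries. As levels these are 0 FPKM in both Q311E libraries, 0.0442 and 0.0236 FPKM in the wild-type line, and 0.146 and 0.146 FPKM in the vector line. The 3 groups did not overlap. SBSN was at least 4.15-fold lower in the Q311E line than in the vector line, with 3 reads over both Q311E libraries as the floor, and this fall passed the threshold in the fit on reads (adjusted p = 0.0288). The call was lost without any 1 of the 6 libraries, with adjusted p from 0.0555 to 0.170. The wild-type line was at 0.234 times the vector level, with a counting interval of 0.0428 to 0.852 (adjusted p = 0.167).

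TGM1, the enzyme of the group, was low in all 3 lines. It stood at 0.428 and 0.347 FPKM in the Q311E line (34 and 28 reads), 0.599 and 0.427 FPKM in the wild-type line (51 and 34 reads), and 0.477 and 0.402 FPKM in the vector line (43 and 31 reads). The groups overlapped in each comparison. The fit on reads gave −0.56 ± 0.32 for Q311E against wild type (adjusted p = 0.244), −0.26 ± 0.32 for Q311E against vector (adjusted p = 0.635) and 0.30 ± 0.31 for wild type against vector (adjusted p = 0.584). The summed reads bound the ratio between 0.532 and 1.05 for Q311E against wild type, 0.614 and 1.24 for Q311E against vector, and 0.844 and 1.61 for wild type against vector, for counting error alone.

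Cornifelin rose in the Q311E line relative to the wild-type line. CNFN stood at 2.99 and 2.57 FPKM in the Q311E line (39 and 34 reads), 0.572 and 1.07 FPKM in the wild-type line (8 and 14 reads), and 0.676 and 1.58 FPKM in the vector line (10 and 20 reads). Both Q311E libraries lay above the 4 others, and the wild-type and vector libraries overlapped. The group means were 2.78 ± 0.30 FPKM in the Q311E line, 0.822 ± 0.35 FPKM in the wild-type line and 1.13 ± 0.64 FPKM in the vector line (SD, n = 2 each). For Q311E against wild type limma gave 1.06 ± 0.25 on the log2(FPKM + 1) scale (adjusted p = 0.0324, from 0.0272 to 0.179 over the alternatives). For Q311E against vector it gave 0.86 ± 0.25 (adjusted p = 0.0699), and for wild type against vector −0.20 ± 0.25 (adjusted p = 0.600). CNFN reached a mean of 1 FPKM only through the Q311E line, since the wild-type and vector libraries together averaged less, so its entry into the test was not independent of this difference. The call against wild type was lost in both fits on reads, where adjusted p was 0.0531 and 0.0644, with no filter on low values (0.0973), and without wild-type library A (0.179) or B (0.124). The value against vector passed the threshold without Q311E library B (0.94, adjusted p = 0.0499).

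CSTA was the 1 abundant gene of the group, and its Q311E libraries stood far apart. It stood at 8.22 and 30.9 FPKM in the Q311E line (239 and 914 reads), 10.2 and 8.93 FPKM in the wild-type line (317 and 260 reads), and 36.7 and 41.1 FPKM in the vector line (1209 and 1158 reads). Q311E library A lay below both wild-type libraries, and Q311E library B lay 3.76-fold above A. On the log2(FPKM + 1) scale the Q311E libraries differed by 1.79, and 56 of the 11481 tested genes (0.488%) differed by at least as much between them. Both vector libraries lay above the 4 others. TP63, the master factor of squamous epithelium and a marker in the squamous list, was picked here after its values were seen. It stood at 19.8 and 32.5 FPKM in the Q311E line, 14.8 and 14.5 FPKM in the wild-type line and 30.2 and 29.8 FPKM in the vector line. Like CSTA, it had its lowest mean in the wild-type line and was higher in Q311E library B than in A. Unlike CSTA, its Q311E library A lay above both wild-type libraries and its Q311E library B above both vector libraries. The part of TP63 in the CSTA values was not tested.

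The means for CSTA were 19.6 ± 16.1 FPKM in the Q311E line, 9.55 ± 0.88 FPKM in the wild-type line and 38.9 ± 3.12 FPKM in the vector line (SD, n = 2 each). The limma fit over the 3 groups gave 0.70 ± 0.55 for Q311E against wild type (adjusted p = 0.362), −1.21 ± 0.55 for Q311E against vector (adjusted p = 0.180) and −1.92 ± 0.55 for wild type against vector (adjusted p = 0.0806), with no call. Where the Q311E libraries did not enter the estimate of the spread, wild type against vector was −1.92 ± 0.08 (adjusted p = 0.000234), and without either Q311E library alone it passed as well (adjusted p = 0.000215 without A and 0.000214 without B). Q311E against wild type was 1.60 without Q311E library A (adjusted p = 0.000248) and −0.19 without Q311E library B (adjusted p = 0.192), so its direction rested on which of the 2 libraries was kept. Q311E against vector was −0.32 without library A (adjusted p = 0.0474) and −2.11 without library B (adjusted p = 0.000298), lower in both cases.

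Counted over the group, 1 of the 2 genes that passed the FPKM filter was called for Q311E against wild type, and it was higher, beside 27.5% of all genes tested (17.5% higher and 10.1% lower). For Q311E against vector 0 of 2 were called (18% of all genes, 8.67% higher and 9.28% lower), and for wild type against vector 0 of 2 (12.3% of all genes, 3.54% higher and 8.76% lower), with 1 of 2 at an unadjusted p under 0.05 in each case. In the fit on reads, 1 of 8 was called higher for Q311E against wild type (20.8% of all genes, 9.19% higher and 11.6% lower). It called 1 of 8 lower for Q311E against vector (12.3% of all genes, 5.48% higher and 6.83% lower) and 0 of 8 for wild type against vector (6.65% of all genes, 3% higher and 3.65% lower). At an unadjusted p under 0.05 the fit on reads held 3, 5 and 3 of the 8. No share of all genes at this unadjusted level is given here, so in either fit these counts have no background beside them. The counts called at an adjusted p are too small to set the group apart from the background.

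Direction without a test was mixed. Among the 8 genes with at least 10 reads, the Q311E libraries lay wholly above the wild-type libraries in 4 genes (42.9% of all such genes) and wholly below in 1 (21.5%). Against vector they lay wholly above in 3 (32.7%), SPRR2A, SPRR2D and CNFN, and wholly below in 3 (22.8%), SPRR1A, SBSN and CSTA. The wild-type libraries lay wholly above the vector libraries in 0 of the 8 (26%) and wholly below in 5 (39.8%), SPRR1A, SPRR1B, SPRR2D, SBSN and CSTA. The comparisons share their libraries, so they are not separate evidence of a direction.

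**Figure D2:**
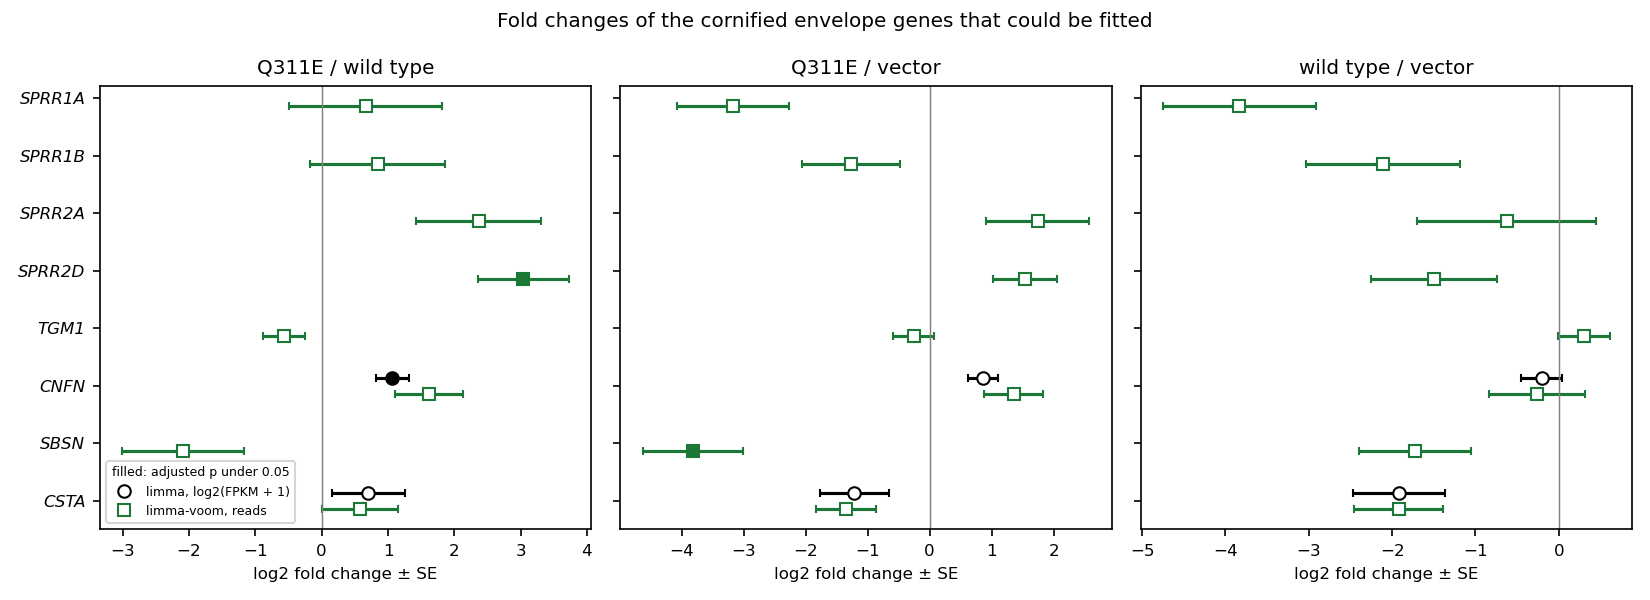
Log2 fold changes with their SE for the 8 genes with at least 10 reads, in the 3 comparisons from left to right; black circles are limma on log2(FPKM + 1), green squares are limma-voom on recovered reads, and filled symbols have an adjusted p under 0.05. Filled symbols are CNFN and SPRR2D for Q311E against wild type and SBSN for Q311E against vector. The fitted values of SPRR1A in both comparisons with wild type and of SBSN in both comparisons with Q311E depend on the prior count, since a whole group is at 0.

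The genes most like the 3 highest members across the 6 libraries were sought by Pearson's r of log2(FPKM + 1) among the other tested genes, as a description with no p. CSTA was most like RAB5C (r = 0.994), ARPC2 (0.993) and ACADM (0.993), all high in the vector libraries and in Q311E library B. CNFN was most like PDZD11 (0.994), NFKBIE (0.991) and the non-coding LINC00513 (0.985). SPRR1B was most like C16orf87 (0.996), the gene with ID ENSG00000281181 (0.986) and GNG5 (0.977). Vector library A held 27 of the 49 SPRR1B reads, so these r values rest largely on that library. C16orf87 ranged only from 1.44 to 1.93 FPKM, since r does not measure the size of a change. With 6 libraries in 3 groups, 163 tested genes had an r over 0.95 with CSTA, 27 with CNFN and 9 with SPRR1B.

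The wider envelope programme was read from 8 further lists that held 113 genes, of which 79 had a row and 49 passed the FPKM filter. The limma calls below rest on both libraries of the wild-type and vector lines. Those of Q311E against wild type were all lost when wild-type library A or B was left out, those of Q311E against vector when vector library A or B was, and those of wild type against vector when any 1 of these 4 was. With only the 2 groups compared, most counts called for the Q311E line fell. Against vector they fell from 5 to 2 for regulators, 5 to 1 for proteases and 3 to 0 for lipid envelope genes. Against wild type they went from 7 to 2, 3 to 1 and 2 to 2, in the same order. The TGM2 call was lost in both. Over all genes the counts fell from 2061 to 262 and from 3162 to 973. For wild type against vector the count for regulators rose from 5 to 16. The late components of the programme that had a row were low. A row was present for 3 of 7 other SPRR genes, 2 of 22 genes of the late cornified envelope (LCE) list and 4 of 8 genes of the filaggrin and loricrin list. Loricrin itself had none, and why rows are missing is not stated. No gene of these lists passed the FPKM filter. SPRR2C, the highest of the other SPRR genes, drew 1 read in Q311E library A, none in the wild-type line and 2 in vector library A. LCE3D drew 1 read in all, in vector library B. Filaggrin (FLG), which bundles keratin filaments, drew 45 and 12 reads in the Q311E line, 49 and 56 reads in the wild-type line and 17 and 16 reads in the vector line, with no call in the fit on reads (adjusted p from 0.124 to 0.666). For the lists below, the shares of all genes called stand at 27.5% for Q311E against wild type, 18% for Q311E against vector and 12.3% for wild type against vector in limma, and at 20.8%, 12.3% and 6.65% in the fit on reads. The lists' counts are to be read against these, and none was tested for standing apart from them.

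Of 11 other envelope proteins tested, 3 rose and 1 fell for Q311E against wild type, 2 rose and 1 fell for Q311E against vector, and 1 rose and 1 fell for wild type against vector. On reads, 12 were fitted, with 4 higher and 3 lower, 2 higher and 1 lower, and 1 higher and 1 lower called, in the same order of comparisons. Their limma median log2 fold changes were −0.03, 0.00 and −0.10, beside medians of 0.05, 0.00 and −0.05 for all genes tested. CALML5, a calcium-binding protein of differentiating keratinocytes, stood at 3.39 and 4.41 FPKM in the Q311E line, 0.153 and 0.218 FPKM in the wild-type line and 1.16 and 0.677 FPKM in the vector line. It rose for Q311E against wild type by 2.04 ± 0.17 (adjusted p = 0.00412) and against vector by 1.36 ± 0.17 (adjusted p = 0.0112), the groups not overlapping. CALML5 passed the FPKM filter only through the Q311E line, where it was high. The same held for CALML3, another of the 3 that rose for Q311E against wild type (adjusted p = 0.0410). PI3, the protease inhibitor elafin, stood at 0.0853 and 0.168 FPKM in the Q311E line, 0.318 and 0 FPKM in the wild-type line and 3.61 and 2.64 FPKM in the vector line. It fell relative to vector in both lines, with −1.86 ± 0.19 in the Q311E line (adjusted p = 0.00701) and −1.83 ± 0.19 in the wild-type line (adjusted p = 0.0100). PI3 passed the FPKM filter only through the vector line, where it was high.

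CSTB, the cystatin closest in kind to CSTA, stood at 45.8 and 69.2 FPKM in the Q311E line, 27.9 and 30.2 FPKM in the wild-type line and 47.8 and 57.1 FPKM in the vector line. It rose for Q311E against wild type (0.93 ± 0.21, adjusted p = 0.0291). Desmoplakin (DSP), which ties keratin to desmosomes and is crosslinked early, averaged 33.6 ± 3.82 FPKM in the Q311E line, 46.3 ± 4.02 FPKM in the wild-type line and 23.2 ± 1.65 FPKM in the vector line. It fell for Q311E against wild type (−0.45 ± 0.12, adjusted p = 0.0406) and rose against vector in the Q311E line (0.52 ± 0.12, adjusted p = 0.0380) and the wild-type line (0.97 ± 0.12, adjusted p = 0.0128). The DSP calls for the Q311E line were lost when FPKM were rescaled to TPM. SERPINB2, a serpin crosslinked into the envelope and picked here after its values were seen, drew 41 and 23 reads in the Q311E line, 2 and 0 reads in the wild-type line and none in the vector line. It was called higher in the Q311E line in the fit on reads, against wild type (adjusted p = 0.0207) and against vector (adjusted p = 0.0175). SERPINB2 had enough reads for this fit only through the Q311E line, so its entry was not independent of these differences.

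Of the other transglutaminases, TGM2, the widely expressed tissue form, passed the FPKM filter. It stood at 19.1 and 15.5 FPKM in the Q311E line, 23.6 and 23.7 FPKM in the wild-type line and 10.6 and 9.94 FPKM in the vector line, without overlap. It rose relative to vector by 0.69 ± 0.11 in the Q311E line (adjusted p = 0.0176) and by 1.13 ± 0.11 in the wild-type line (adjusted p = 0.00891). It fell for Q311E against wild type (−0.44 ± 0.11, adjusted p = 0.0395), a call lost on the TPM scale. On the per-length scale its level was thus well above that of TGM1 in every library.

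Of 7 tested genes of the lipid envelope, 2 rose for Q311E against wild type, 3 rose for Q311E against vector, and none was called for wild type against vector, where none had an unadjusted p under 0.05 in limma and the fit on reads called 2 of 11 lower, with 3 of 11 at an unadjusted p under 0.05. In each of the comparisons of the Q311E line the fit on reads called 3 of 11 higher and 1 of 11 lower. No share of all genes at an unadjusted p under 0.05 is given here. SMPD1, the acid sphingomyelinase that yields ceramide, stood at 11.9 and 12.4 FPKM in the Q311E line, 7.15 and 8.21 FPKM in the wild-type line and 7.42 and 6.82 FPKM in the vector line, with both Q311E libraries above the 4 others. It rose in the Q311E line by 0.60 ± 0.09 against wild type (adjusted p = 0.0140) and by 0.69 ± 0.09 against vector (adjusted p = 0.0125). UGCG, which makes glucosylceramide, averaged 93.1 ± 20.2 FPKM in the Q311E line, 62.3 ± 4.26 FPKM in the wild-type line and 56.4 ± 0.97 FPKM in the vector line and rose against vector (0.70 ± 0.16, adjusted p = 0.0379), a call lost on the TPM scale.

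Both lower calls of that list for wild type against vector in the fit on reads were genes picked after their values were seen. CERS3, the synthase of the very long ceramides bound to the envelope, drew 2 and 0 reads in the Q311E line, none in the wild-type line and 30 and 54 reads in the vector line. It was called lower than vector in the Q311E line (adjusted p = 0.0294) and the wild-type line (adjusted p = 0.0324). CERS3 had enough reads for this fit only through the vector line, where it was high, so its entry was not independent of these differences. ABCA12, the lipid transporter of lamellar granules, stood at 1.13 and 1.25 FPKM in the Q311E line, 0.511 and 0.522 FPKM in the wild-type line and 1.19 and 1.05 FPKM in the vector line. It was higher in the Q311E line than in the wild-type line (1.04 ± 0.18, adjusted p = 0.0118) and lower in the wild-type line than in the vector line (−1.02 ± 0.18, adjusted p = 0.0244).

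Of 7 tested proteases and inhibitors, 2 rose and 1 fell for Q311E against wild type, 4 rose and 1 fell for Q311E against vector, and 2 rose and 1 fell for wild type against vector. On reads, 10 were fitted, with 2 higher and 2 lower, 4 higher and 1 lower, and 3 higher and 1 lower called, in the same order of comparisons. KLK5, a serine protease that starts the shedding of the outermost cells, stood at 134 and 104 FPKM in the Q311E line, 67.2 and 71.5 FPKM in the wild-type line and 36.9 and 39.6 FPKM in the vector line. It rose by 0.76 ± 0.13 for Q311E against wild type (adjusted p = 0.0174), by 1.61 ± 0.13 for Q311E against vector (adjusted p = 0.00523) and by 0.84 ± 0.13 for wild type against vector (adjusted p = 0.0217). The cysteine cathepsins, which cystatin A inhibits, moved in both directions. CTSV stood at 4.38 and 3.67 FPKM in the Q311E line, 5.61 and 5.34 FPKM in the wild-type line and 1.84 and 2.22 FPKM in the vector line, and rose against vector in the Q311E line (0.73 ± 0.12, adjusted p = 0.0170) and the wild-type line (1.10 ± 0.12, adjusted p = 0.0102). CTSL stood at 42.2 and 39.2 FPKM in the Q311E line, 30.6 and 33.9 FPKM in the wild-type line and 64.3 and 71.1 FPKM in the vector line, and fell against vector in the Q311E line (−0.72 ± 0.10, adjusted p = 0.0118) and the wild-type line (−1.05 ± 0.10, adjusted p = 0.00840). BLMH, a cysteine protease that breaks down filaggrin, stood at 4.05 and 1.95 FPKM in the Q311E line, 9.80 and 11.04 FPKM in the wild-type line and 4.92 and 4.90 FPKM in the vector line, and fell for Q311E against wild type (−1.56 ± 0.25, adjusted p = 0.0144).

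**Figure D3:**
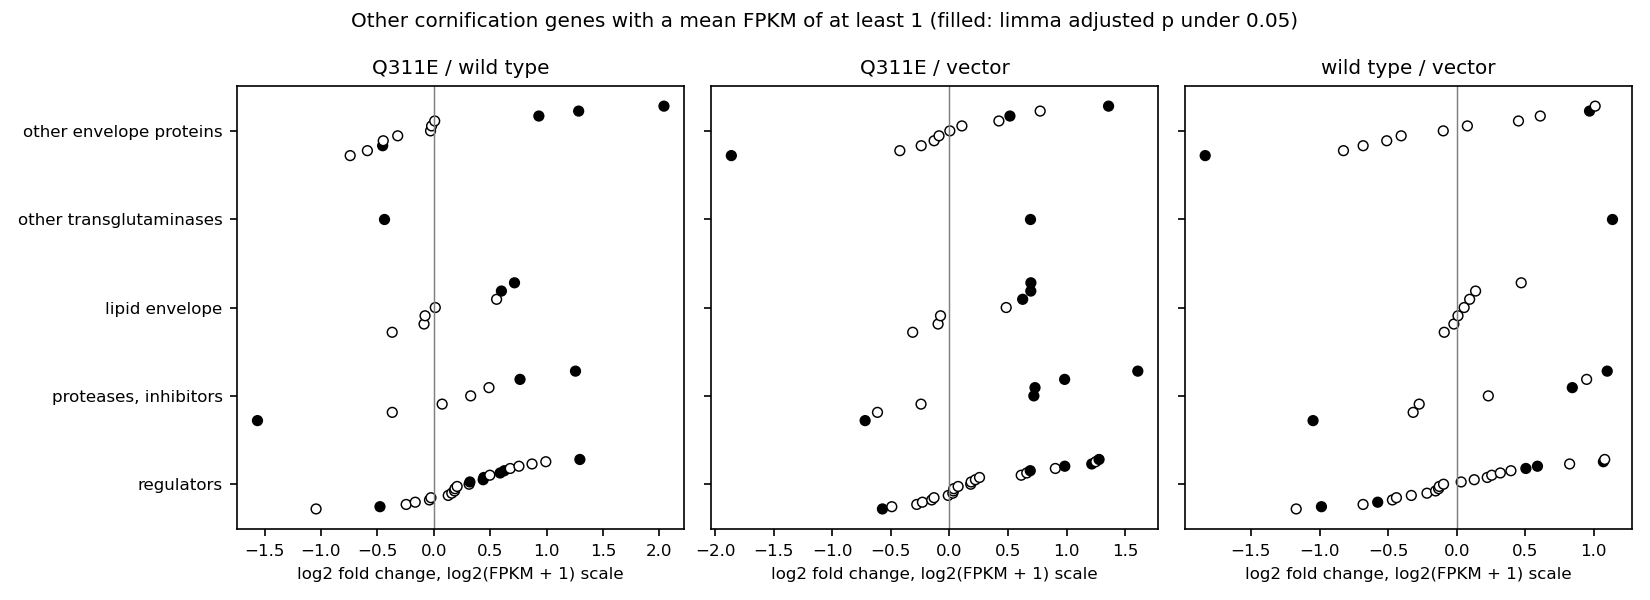
Log2 fold changes on the log2(FPKM + 1) scale of the 49 tested genes of the other cornification lists, 1 point per gene, in the 3 comparisons from left to right; filled points have a limma adjusted p under 0.05. Points lie on both sides of 0 in the lists of envelope proteins, proteases and regulators in each comparison, and TGM2 is the 1 point of the other transglutaminases.

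Of 23 tested regulators of keratinocyte differentiation, 6 rose and 1 fell for Q311E against wild type, 4 rose and 1 fell for Q311E against vector, and 3 rose and 2 fell for wild type against vector. On reads, 28 were fitted, with 5 higher and 3 lower, 6 higher and 1 lower, and 3 higher and 2 lower called, in the same order of comparisons. The limma medians were 0.31, 0.18 and −0.10, beside 0.05, 0.00 and −0.05 for all genes tested. KLF4, a zinc-finger factor that mice need for their epidermal barrier, stood at 18.5 and 17.2 FPKM in the Q311E line, 11.1 and 11.3 FPKM in the wild-type line and 7.74 and 6.56 FPKM in the vector line. It rose by 0.63 ± 0.10 for Q311E against wild type (adjusted p = 0.0137), by 1.22 ± 0.10 for Q311E against vector (adjusted p = 0.00514) and by 0.59 ± 0.10 for wild type against vector (adjusted p = 0.0235). OVOL1, a zinc-finger factor of the suprabasal layers, stood at 3.73 and 3.39 FPKM in the Q311E line, 2.04 and 2.02 FPKM in the wild-type line and 1.503 and 1.12 FPKM in the vector line. It rose by 0.59 ± 0.12 for Q311E against wild type (adjusted p = 0.0234, lost on the TPM scale) and by 0.98 ± 0.12 for Q311E against vector (adjusted p = 0.00924). The groups did not overlap for either gene. OVOL2, named here after its values were seen, was the 1 regulator that fell in limma in the Q311E line. Its log2 fold change was −0.48 ± 0.08 against wild type (adjusted p = 0.0164) and −0.57 ± 0.08 against vector (adjusted p = 0.0134). The fit on reads called it lower in both comparisons (adjusted p = 0.0167 and 0.0201). Against wild type that fit also called FOSL1 (adjusted p = 0.0256) and GRHL2 (adjusted p = 0.0387) lower.

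JUN, a subunit of AP-1, stood at 69.7 and 87.0 FPKM in the Q311E line, 68.0 and 66.6 FPKM in the wild-type line and 31.8 and 31.3 FPKM in the vector line. It rose relative to vector by 1.28 ± 0.12 in the Q311E line (adjusted p = 0.00562) and by 1.07 ± 0.12 in the wild-type line (adjusted p = 0.0105). NOTCH1, the receptor that starts suprabasal differentiation, stood at 12.7 and 14.3 FPKM in the Q311E line, 11.7 and 11.7 FPKM in the wild-type line and 7.98 and 7.95 FPKM in the vector line. It rose relative to vector by 0.69 ± 0.08 in the Q311E line (adjusted p = 0.00974) and by 0.50 ± 0.08 in the wild-type line (adjusted p = 0.0239). The 2 regulators that fell for wild type against vector, TP63 and EHF, are named here after their values were seen. Limma gave −0.99 ± 0.22 for TP63 (adjusted p = 0.0448) and −0.58 ± 0.09 for EHF (adjusted p = 0.0194). The fit on reads called both lower as well (adjusted p = 0.0482 and 0.0358). The TP63 call was lost with median scaling and the EHF call on the TPM scale.

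A pair of low regulators, picked after their values were seen, separated the Q311E line from both others in the fit on reads. GRHL3, which in mice drives Tgm1 and barrier formation, drew 40 and 48 reads in the Q311E line, 1 and 0 reads in the wild-type line and 7 and 2 reads in the vector line. Its log2 fold change was 5.53 ± 0.91 for Q311E against wild type (adjusted p = 0.0108) and 3.31 ± 0.58 for Q311E against vector (adjusted p = 0.0169). ZNF750, a factor that promotes late epidermal differentiation, drew 34 and 65 reads in the Q311E line, 6 and 2 reads in the wild-type line and 10 and 11 reads in the vector line. Its log2 fold change was 3.42 ± 0.71 for Q311E against wild type (adjusted p = 0.0203) and 2.11 ± 0.53 for Q311E against vector (adjusted p = 0.0452). For wild type against vector neither was called (adjusted p = 0.234 for GRHL3 and 0.356 for ZNF750). The wild-type side of GRHL3 is 1 read over both libraries, so the size of its fold change against wild type depends on the prior count. How the calls on reads of GRHL3, ZNF750, SERPINB2, CERS3 and ABCA12 held when a library was left out is not given here.

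**Figure D4:**
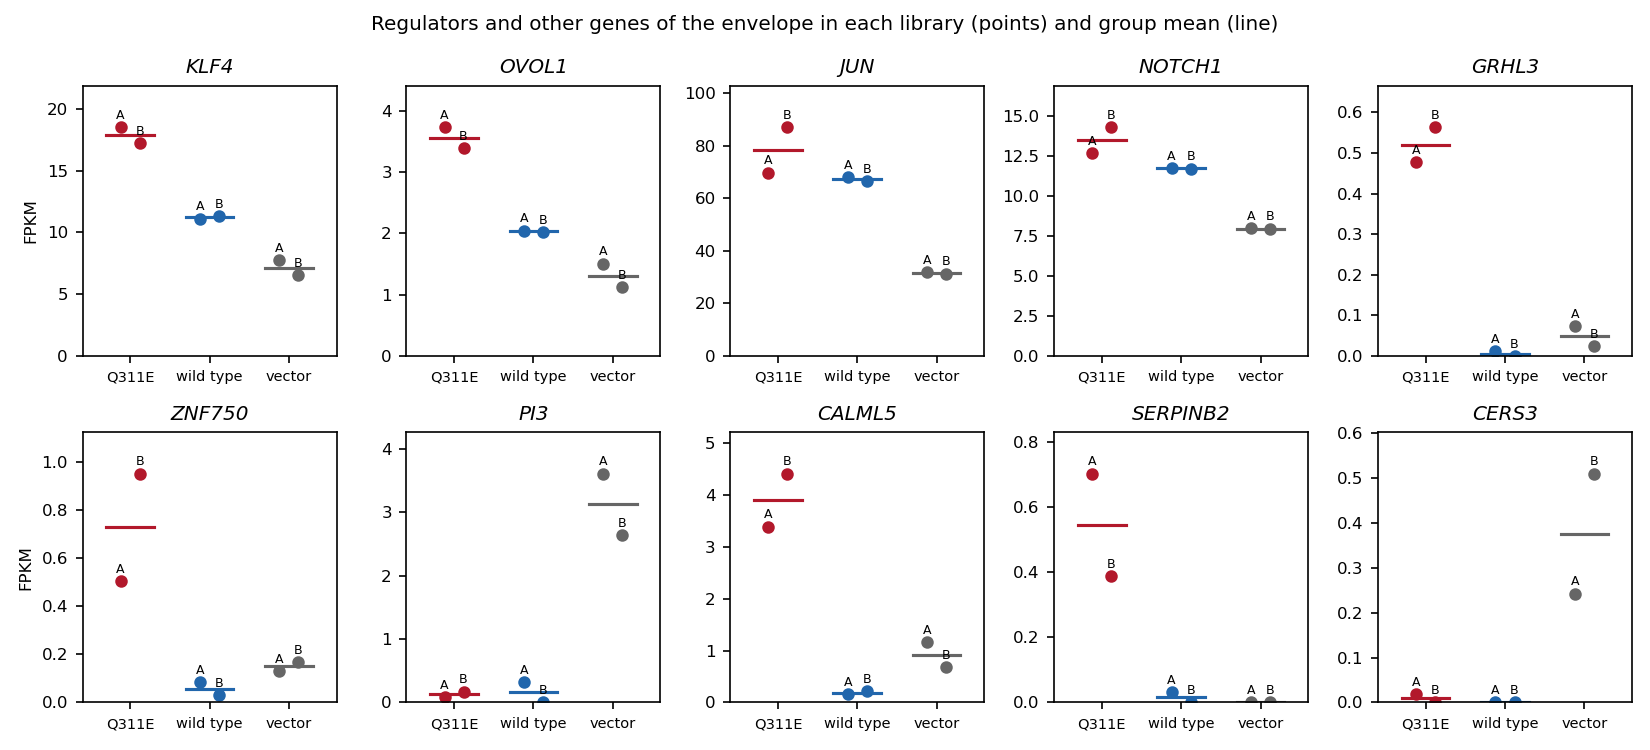
FPKM of 10 other genes of the envelope programme in each library (points, labelled A and B) with the group mean (line), in the Q311E, wild-type and vector lines from left to right, each panel with its own axis from 0. KLF4, OVOL1, GRHL3, ZNF750, CALML5 and SERPINB2 are highest in the Q311E line, and PI3 and CERS3 are highest in the vector line. Regulators that were called lower, such as OVOL2 in the Q311E line and TP63 and EHF in the wild-type line against vector, are not shown.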

How the data were processed

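The deposited table holds FPKM values, made by the authors, for 6 libraries, per the file headers. The submitters' processing notes name CASAVA and 2 mouse builds, mm8 and mm9, with no role, although the gene IDs are human. The sources used here give no aligner, annotation or use of strand. Symbols matched 29993 of 30178 IDs. Positions came from GENCODE 29 (GRCh38). Whole reads were recovered, within a tolerance of 0.001, for 30030 genes (99.5%), by fitting the length where the annotated one gave none. SPRR1B, SPRR2A, SPRR2D, CNFN and CSTA have fitted lengths. Depth was 20645408 to 24147308 reads. Reads carry no molecular identifiers, so intervals cover counting error only.

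The test was limma 3.58.1 (R 4.3.3) with a trend in the variance prior on log2(FPKM + 1), 3 groups in 1 fit with 3 residual degrees of freedom, on genes averaging 1 FPKM or more. P-values are two-sided and Benjamini-Hochberg adjusted over all genes tested. Limma-voom with TMM scaling on recovered reads was the second fit. Both were run on simulated data in which each gene had a spread common to all groups. The Q311E libraries differed more from each other than those of the other lines. Those runs therefore cannot show how the fits behave under such unequal spread, and their results are not given here. Alternatives were other pseudocounts, filters, scalings, the letter as a block, 2 groups at a time and leaving out each library. The named genes are all 10 members, up to 4 called genes by smallest p of each other list or its highest gene if none was called, and the 3 genes most like each of the 3 highest members; 1 gene so named is not reported here. Other genes of the lists that are named in the text were picked after their values were seen. The members and lists were chosen with earlier results of these data known.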

Additional observations from a re-analysis of the deposited data

How the results depend on the processing

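The count of envelope genes called for Q311E against wild type was 1. It was 0 with limma-voom on recovered reads of the same genes and 0 with a mean FPKM of at least 5, where CNFN was filtered out, and it ranged from 0 to 2 when a library was left out: 0 without wild-type library A or B and 2, CNFN and CSTA, without Q311E library A. For Q311E against vector it was 0, but 1 (SBSN) in the fit on genes with at least 10 reads and 1 (SBSN) with no filter on low values. It ranged from 0 to 2, with CSTA called without Q311E library A and both CNFN and CSTA without B. For wild type against vector it was 0, and 1 (CSTA) with only the 2 groups compared, and it ranged from 0 to 1, with CSTA called without Q311E library A or B. With no filter, SPRR2D was the gene called for Q311E against wild type (adjusted p = 0.0376) in place of CNFN. Where a library was left out, its group kept 1 library, assumed to vary like the other groups. Directions turned in few cases. CSTA for Q311E against wild type ranged from −0.19 (without Q311E B) to 1.60, and from −0.38 (without Q311E B) to 1.53 on reads. CNFN for wild type against vector ranged from −0.52 to 0.11 (without vector B), and from −0.90 to 0.30 on reads, with 0.20 without wild-type A and 0.30 without vector B. On reads, SPRR2A for wild type against vector ranged from −1.75 to 0.45 (without wild-type B). The fit also gave SPRR1A for Q311E against wild type values from −0.14 (without Q311E A) to 1.47, but the lower one sets 0 reads against 0 reads, comes from the prior count and library sizes alone, and shows no turn in the data. The cause was not tested.

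Over all genes the counts called were 3162, 2061 and 1412 in the order Q311E against wild type, Q311E against vector and wild type against vector. They were 1608, 1210 and 393 with no filter, 973, 262 and 5273 with only the 2 groups compared, and 0 to 6939, 3 to 5662 and 7 to 5238 when a library was left out. Taking the letters as a replicate block gave 1, 0 and 0 envelope genes called and 3264, 1942 and 1299 over all genes. The letters were not taken to pair the libraries, since the A minus B differences of 2 groups correlated at −0.01 for Q311E and wild type, 0.39 for Q311E and vector and −0.03 for wild type and vector. Regulators called ranged from 0 to 18, 0 to 14 and 0 to 16 over all alternatives, other envelope proteins from 0 to 8, 0 to 6 and 0 to 8, proteases from 0 to 5, 0 to 7 and 0 to 5, lipid envelope genes from 0 to 4, 0 to 4 and 0 to 2, and TGM2 was called or not in each comparison. TPM scaling kept 13 of 18, 15 of 17 and 10 of 11 calls among the members and other lists, and median scaling kept 17, 17 and 10, with no change of sign. The 2 planned count-based tests were not run because the deposited values are FPKM. Depth limits IVL and SPRR3, which drew 3 reads and 1 read in all. With 2 libraries a group, an exact permutation test cannot go below p = 0.333 (two-sided) and was not used.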
